A study of Mus musculus with 53 samples.

Results

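The paraventricular nucleus (PVN) and the arcuate nucleus (ARC) of the hypothalamus were compared in chow-fed male Nnat+/-p mice, using all 7 PVN libraries (replicates 16 to 22) and all 8 ARC libraries (replicates 36 to 43) of that genotype and diet among the 53 libraries of the series. Nnat+/-p mice are C57BL/6 heterozygotes that inherit the mutant allele of the imprinted gene *Nnat* from the father, and since the maternal copy is silent they lack nearly all *Nnat* RNA. The mutant allele, in which a lacZ reporter was inserted and exons 2 and 3 were deleted, is carried by both nuclei of every mouse used here. Nuclei were cut by laser from stained frozen sections of mice of 13 to 14 weeks, and picogram amounts of their RNA were made into stranded libraries of total RNA and read from a single end. Both weight classes were used, with labelled weights of 27.4 to 34.3 g in non-obese mice (3 PVN and 4 ARC libraries) and 38.8 to 46.5 g in obese mice (4 PVN and 4 ARC libraries). A labelled weight shared by 1 PVN and 1 ARC library made 6 pairs, although no label states that the nuclei of a pair came from the same mouse. The pairs were replicates 16 and 36, 17 and 37, 18 and 38, 20 and 41, 21 and 42, and 22 and 43. PVN replicate 19 and ARC replicates 39 and 40 all carry 34.3 g and were not paired. All PVN libraries came from one sequencing pool and all ARC libraries from another, so nucleus and pool cannot be told apart in any comparison below.

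The PVN holds magnocellular neurons, which send oxytocin and vasopressin to the posterior pituitary, and parvocellular neurons, which release corticotropin-releasing and thyrotropin-releasing hormone toward the anterior pituitary. The ARC lies beside the third ventricle, close to the median eminence, and holds the neurons that lower food intake through *Pomc* and those that raise it through *Agrp* and *Npy*. The transcription factors *Sim1*, *Otp* and *Pou3f2* specify PVN neurons, and *Nkx2-1*, *Isl1* and *Tbx3* belong to the ARC and the ventral hypothalamus around it.

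The 15 libraries held 1479953 to 7456122 counts, and 26.3 to 34.6% of counts in the PVN and 29.1 to 48.8% in the ARC fell on mitochondrially encoded genes. *Nnat* (ENSMUSG00000067786, GRCm38, chromosome 2 from 157560078 to 157562522, plus strand) lies within *Blcap* (157556362 to 157571274, minus strand). *Nnat* was at 2.58 to 13.5 CPM (counts scaled to a common library size) of the library total in the PVN and at 0.268 to 4.72 CPM in the ARC, against 224 to 645 CPM in the 18 wild-type male libraries of the series. The highest of these, wild-type ARC replicate 35, has markers that go against its label, and the next held 549 CPM. All 15 libraries were therefore far below every wild-type library. On the scale used from here, CPM of library totals multiplied by TMM factors, *Nnat* had a median of 4.85 CPM in the PVN and 1.96 CPM in the ARC, and the groups overlapped. The fitted log2 fold change (PVN minus ARC) was 1.27 ± 0.73 (SE), with an adjusted p of 0.33.

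The marker genes went with the labels in 14 of the 15 libraries. The library labelled ARC replicate 43 held 2.31 CPM of *Pomc*, where the other 7 ARC libraries held at least 23.9 CPM, and no count of *Agrp*, which was also without a count in ARC replicate 39. It held 196 CPM of *Pmch* and 14.4 CPM of *Hcrt*, peptide genes of the lateral hypothalamus, and 2 CPM of *Nr5a1*, which marks the ventromedial nucleus. ARC replicates 36 to 42 held at least 24.5 CPM of *Nr5a1*, so RNA of this gene of the neighbouring ventromedial nucleus was measured with the ARC in those libraries. The share of ventromedial tissue in them was not measured. In bulk tissue, fewer cells of a type and less RNA per cell cannot be told apart. PVN replicate 19 held 120 CPM of *Tcf7l2*, a gene of the thalamus, and PVN replicate 21 held 61.8 CPM, where the median of the PVN was 18.4 CPM. The summed level of the 7 genes listed for the thalamus was 50.5 to 215 CPM in the PVN (median 70.3). In the ARC it was 22.3 to 77 CPM (median 31.5). Each count of a gene list below is given with all 6 pairs and, where it changed, also without the pair of replicates 22 and 43.

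**Figure D1:**
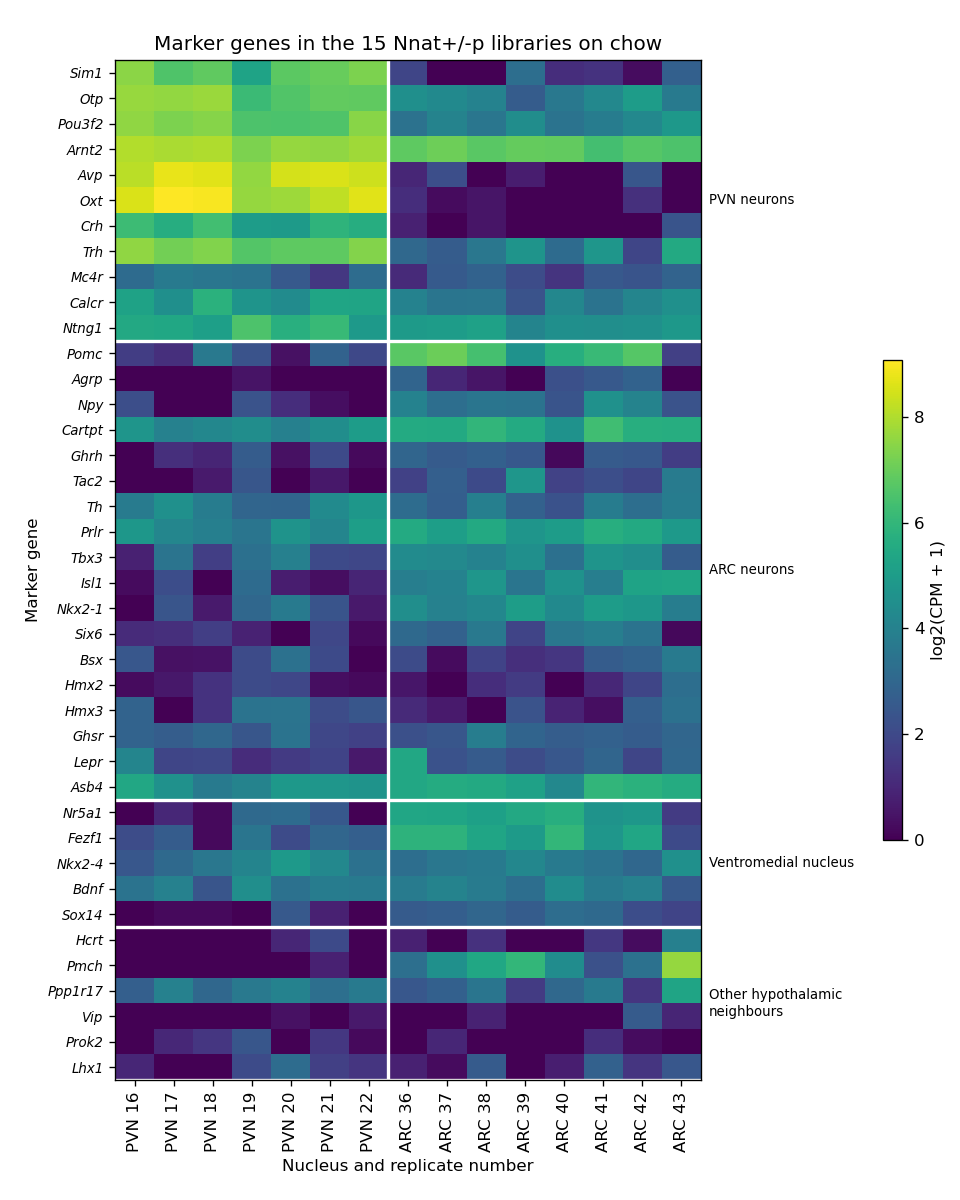
Levels of marker genes as log2(CPM + 1), in colour, for each of the 15 libraries (columns) and the markers of PVN neurons, ARC neurons, the ventromedial nucleus and other neighbouring hypothalamic cells (rows). *Oxt* and *Avp* were at 195 CPM or more in all 7 PVN libraries and below 5 CPM in all 8 ARC libraries, and the column of ARC replicate 43 is dark at *Pomc*, *Nr5a1* and *Fezf1* and bright at *Pmch*.

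The promoters of 4 peptide genes are shown for reference, and no result below rests on these sequences. *Oxt* and *Avp* lie 3.6 kb apart and were high in the PVN. *Pomc* and *Pmch* were high in the ARC. The sequences are from RefSeq (GRCm38.p6), at chr2:130575919-130576218 (*Oxt*, plus strand), chr2:130582539-130582838 (*Avp*, minus strand), chr12:3954695-3954994 (*Pomc*, plus strand) and chr10:88090822-88091121 (*Pmch*, plus strand). They run 5′ to 3′ on the strand of the gene and hold 250 bases before and 50 bases from the start of the gene. Capitals mark matches on either strand to TATAAA (a core promoter box), ACGTG (a core bound by bHLH-PAS factors), TGACGT (a cAMP response element core), TAATTA (a homeodomain core) or ATGCAAAT (the octamer).
Oxt: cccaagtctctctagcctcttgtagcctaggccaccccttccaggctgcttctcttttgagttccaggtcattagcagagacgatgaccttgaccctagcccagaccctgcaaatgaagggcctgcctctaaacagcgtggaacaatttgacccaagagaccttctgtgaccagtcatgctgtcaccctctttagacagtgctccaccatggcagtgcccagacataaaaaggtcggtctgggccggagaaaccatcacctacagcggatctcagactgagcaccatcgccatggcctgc
Avp: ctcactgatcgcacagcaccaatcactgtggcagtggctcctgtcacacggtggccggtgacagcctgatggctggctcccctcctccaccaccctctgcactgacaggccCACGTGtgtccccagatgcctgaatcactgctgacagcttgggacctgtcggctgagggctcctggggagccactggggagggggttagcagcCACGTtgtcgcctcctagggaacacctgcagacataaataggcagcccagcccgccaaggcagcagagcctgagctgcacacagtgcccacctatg
Pomc: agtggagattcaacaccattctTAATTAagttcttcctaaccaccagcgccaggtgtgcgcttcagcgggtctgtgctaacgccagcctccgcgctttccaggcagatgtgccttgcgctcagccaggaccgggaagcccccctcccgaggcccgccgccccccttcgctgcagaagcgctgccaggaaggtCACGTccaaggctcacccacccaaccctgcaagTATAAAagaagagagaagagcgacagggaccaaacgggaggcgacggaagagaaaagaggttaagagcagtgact
Pmch: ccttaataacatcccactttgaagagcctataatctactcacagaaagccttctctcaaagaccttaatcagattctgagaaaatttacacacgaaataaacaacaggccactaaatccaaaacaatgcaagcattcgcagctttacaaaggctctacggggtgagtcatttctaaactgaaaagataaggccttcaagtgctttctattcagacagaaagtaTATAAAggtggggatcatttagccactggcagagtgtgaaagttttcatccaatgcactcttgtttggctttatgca

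TATAAA was found in the *Pomc* promoter at position -25 and in that of *Pmch* at -27, counted from the start of the gene, and it occurs in 13.6% of all 32851 promoters in the table. ACGTG was found in the *Avp* promoter at -138 and, overlapping it on the other strand, at -139, and again at -46, and in the *Pomc* promoter at -58, against 19.6% of all promoters. TAATTA occurred once, in *Pomc*, against 5.29% of all. TGACGT and ATGCAAAT occurred in none of the 4, against 7.51% and 1.74%, and the *Oxt* promoter held none of the 5 motifs. A match is given as a description of the letters only.

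Of 12419 genes tested, 435 were called higher in the PVN (3.50%) and 679 higher in the ARC (5.47%) at an adjusted p under 0.05, in edgeR's quasi-likelihood test with the pair as a block. All adjusted p-values between the nuclei are from this test unless another is named. The shares of 3.50% and 5.47% over all genes are the background of each list count below. A list with 1 called gene in a direction is not read as differing from them. Without the pair of replicates 22 and 43 the counts were 389 and 643, and 902 of the 1114 genes were called again. The median fold among called genes was 2.28 for those higher in the PVN and 1.78 for those higher in the ARC, and 273 and 260 genes passed 2-fold. Over all 15 libraries, 132 genes had every PVN library above every ARC library (1.06% of those tested), of which 114 were called, and 179 had every PVN library below every ARC library (1.44%), of which 174 were called. The median over all genes tested was -0.009 on the log2 scale. Scaling by library totals alone moved that median to 0.221 and the counts to 975 higher in the PVN and 326 higher in the ARC, and with mitochondrially encoded genes left out of such totals the counts were 352 and 570.

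**Figure D2:**
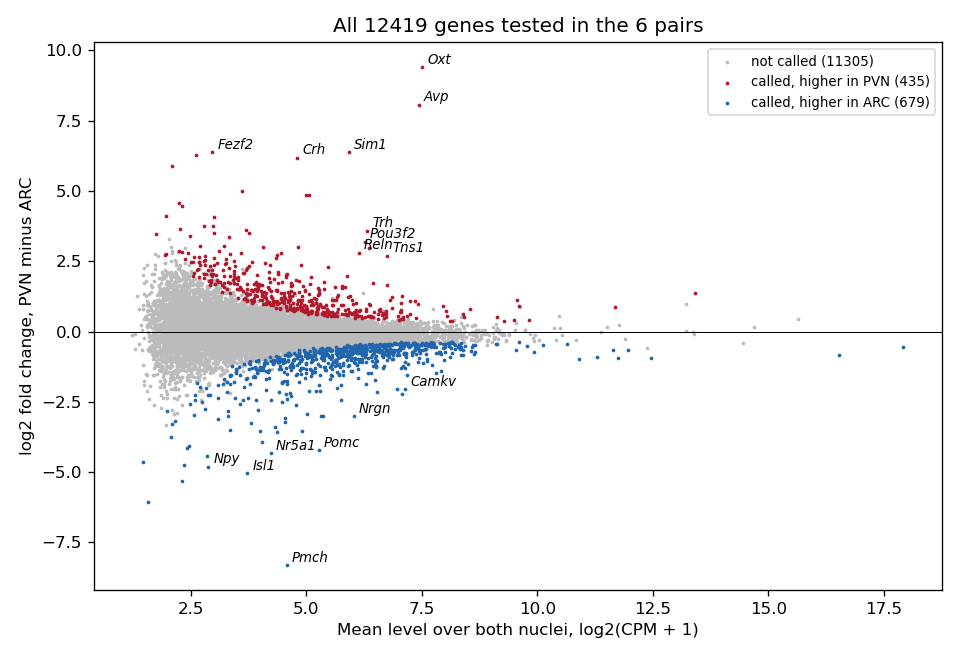
The log2 fold change (PVN minus ARC, 6 pairs) of each of the 12419 genes tested against its mean level over both nuclei as log2(CPM + 1), with called genes in red (435 higher in the PVN) and blue (679 higher in the ARC). *Oxt* and *Avp* lie at the top and *Pmch* at the bottom.

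Of the 11 genes listed for PVN neurons, all were tested, 9 were called higher in the PVN and none higher in the ARC, with a median log2 fold change of 3.20. Leaving out the pair of replicates 22 and 43 left these counts as they were. *Oxt*, the precursor of oxytocin, ranged from 199 to 538 CPM in the PVN (median 376) and from 0 to 1.38 CPM in the ARC (median 0.0982). Every PVN library was above every ARC library, and the log2 fold change was 9.40 ± 0.31 (SE; adjusted p = 3.73e-16). With 17 *Oxt* counts in the whole ARC, this SE, which is derived from the test, is approximate. *Avp*, the precursor of vasopressin, ranged from 195 to 432 CPM in the PVN (median 362) and from 0 to 4.37 CPM in the ARC (median 0.332), again with no overlap, and its log2 fold change was 8.07 ± 0.38 (adjusted p = 5.61e-13). Both magnocellular hormones were thus near the bottom of the count range throughout the ARC, ARC replicate 43 included, where neither had a count.

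*Crh*, the releasing hormone of the stress axis, ranged from 29.9 to 79.1 CPM in the PVN (median 49.6) and was at 0 in most ARC libraries, with 4.15 CPM in replicate 43 and at most 0.795 CPM in the others. Its log2 fold change was 6.19 ± 0.49 (adjusted p = 8.41e-09), and 7.67 without the pair of replicates 22 and 43. *Trh*, the releasing hormone of the thyroid axis, ranged from 100 to 190 CPM in the PVN (median 139) and from 2.76 to 44.6 CPM in the ARC (median 9.54). Unlike the 3 hormones above, *Trh* was present in every ARC library, highest in replicate 43, and the groups still did not overlap (log2 fold change 3.59 ± 0.33, adjusted p = 6.51e-08). *Penk*, the enkephalin precursor, was also higher in the PVN without overlap, at 48.5 to 142 CPM against 13.1 to 44.9 CPM (log2 fold change 1.57 ± 0.23, adjusted p = 6.07e-05).

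**Figure D3:**
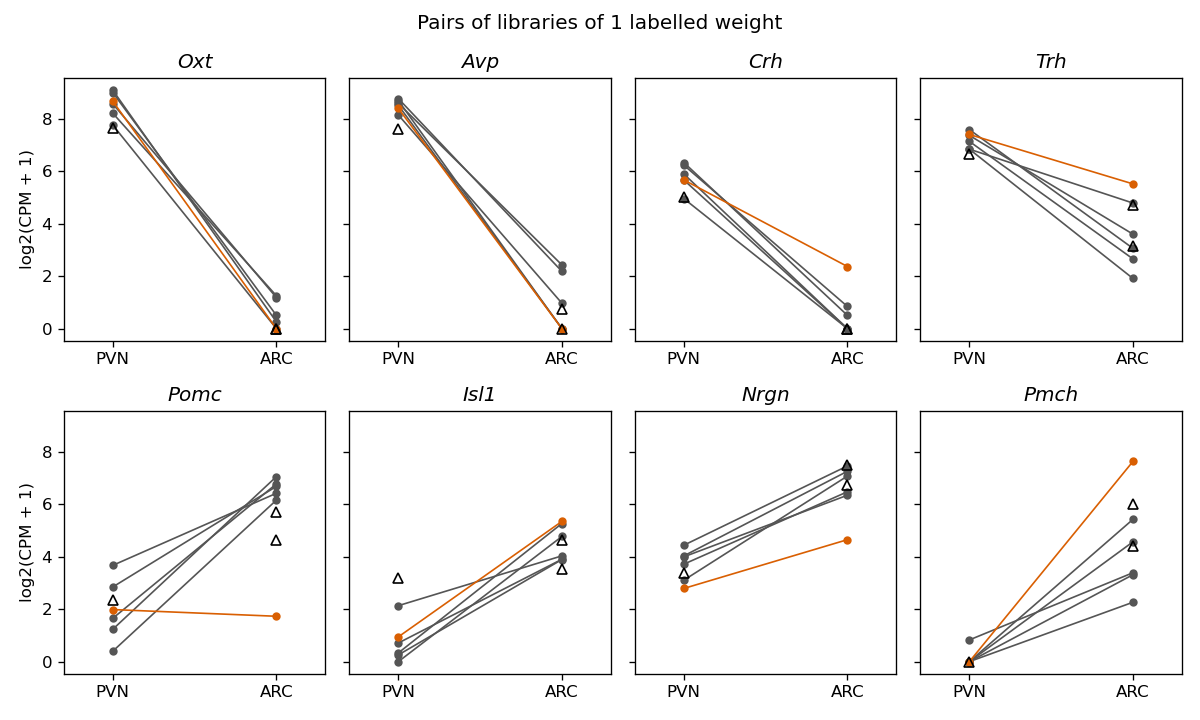
Levels as log2(CPM + 1) of 8 genes in the PVN and the ARC, with a line for each of the 6 pairs of libraries of 1 labelled weight, the pair of replicates 22 and 43 in orange, and unpaired libraries (PVN replicate 19, ARC replicates 39 and 40) as open triangles. All lines fall for *Oxt*, *Avp*, *Crh* and *Trh* and all rise for *Isl1*, *Nrgn* and *Pmch*, while for *Pomc* the orange line alone does not rise.

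Among the transcription factors of the PVN, *Sim1*, whose loss removes these neurons in development, ranged from 37.2 to 179 CPM in the PVN (median 116) and from 0 to 8.63 CPM in the ARC (median 1.4). Its groups did not overlap and its log2 fold change was 6.38 ± 0.38 (adjusted p = 3.74e-11). *Pou3f2* (89.6 to 188 against 9.7 to 27.7 CPM) and *Otp* (71.9 to 207 against 5.31 to 31.5 CPM) differed by 3.20 ± 0.21 and 2.97 ± 0.20 on the log2 scale. *Arnt2*, the partner of SIM1 (153 to 259 against 81.6 to 134 CPM), differed by 1.10 ± 0.12. PVN replicate 19 was the lowest PVN library for *Sim1* and *Otp*, and was still above every ARC library for both. Of the remaining listed genes, *Calcr*, the calcitonin receptor, was called (log2 fold change 1.26 ± 0.24, adjusted p = 0.000981) with overlapping groups. *Mc4r*, the melanocortin receptor through which the PVN restrains feeding, had 1.8 to 12.3 CPM in the PVN and 1.11 to 6.46 CPM in the ARC and was not called (0.66 ± 0.56, adjusted p = 0.55), and neither was *Ntng1* (0.61 ± 0.22, adjusted p = 0.0905).

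Over the whole list of 51 patterning transcription factors, 37 were tested, of which 12 were called higher in the PVN and 9 higher in the ARC, with a median log2 fold change of -0.05. Besides those above, *Fezf2*, *Uncx*, *Ebf3* and *Nhlh2* were higher in every PVN library than in any ARC library. *Fezf2* ranged from 4.77 to 30.1 CPM in the PVN and from 0 to 0.46 CPM in the ARC (log2 fold change 6.37 ± 0.75), and *Uncx* from 11.4 to 34.6 CPM against 0 to 4.64 CPM (4.99 ± 0.55). *Ebf3* ranged from 30.1 to 83 CPM in the PVN and from 0.505 to 18.6 CPM in the ARC, where the highest library was replicate 43. The others called higher in the PVN were *Lhx2*, *Meis2*, *Zic1* and *Zic2*, with overlap.

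Genes of the PVN outside these lists included *Tns1*, which encodes the focal adhesion protein tensin 1, at 121 to 260 CPM against 18 to 47 CPM in the ARC (log2 fold change 2.70 ± 0.16, adjusted p = 3.18e-11). *Reln*, the extracellular matrix protein reelin, was at 81.6 to 145 against 6.91 to 35.1 CPM (2.81 ± 0.23), and *Nrn1*, a secreted neurite growth factor, at 27.5 to 84.2 against 0 to 9.84 CPM (4.84 ± 0.43). None of these overlapped between nuclei, nor did *Tent5a*, a poly(A) polymerase (2.29 ± 0.19). *Agtr1a*, the angiotensin receptor, was at 4.85 to 15.2 CPM in the PVN and at 0 to 0.419 CPM in the ARC (6.28 ± 0.82, adjusted p = 1.11e-05), and *Prdm8*, a histone methyltransferase family member, at 5.97 to 27.9 against 0 to 3.38 CPM (4.08 ± 0.73).

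Of the 19 genes listed for ARC neurons, 16 were tested, 11 were called higher in the ARC and none higher in the PVN, with a median log2 fold change of -1.71, and without the pair of replicates 22 and 43 there were 10. *Pomc*, the precursor of melanocyte-stimulating hormone and beta-endorphin, ranged from 2.31 to 131 CPM in the ARC (median 77) and from 0.318 to 11.7 CPM in the PVN (median 2.95). The groups overlapped through ARC replicate 43, and the log2 fold change was -4.21 ± 0.53 (adjusted p = 6.86e-06), or -4.80 (adjusted p = 4.75e-08) without that pair. *Npy*, which drives feeding, ranged from 4 to 23.2 CPM in the ARC (median 10.2) and from 0 to 4.04 CPM in the PVN (median 0.258), and differed by -4.81 ± 0.73 (adjusted p = 7.90e-05). *Agrp*, which is made by the same neurons, was too low to be tested, at 0 to 6.52 CPM in the ARC and at 0 in 6 of 7 PVN libraries.

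*Cartpt*, which accompanies *Pomc* in many ARC neurons, ranged from 23.7 to 76.8 CPM in the ARC (median 47.4) and from 14.6 to 31.4 CPM in the PVN (median 20.6), with a log2 fold change of -1.43 ± 0.22 (adjusted p = 8.14e-05). *Tac2*, the neurokinin B precursor, differed by -4.75 ± 1.09 (adjusted p = 0.00516) and *Ghrh*, the releasing hormone of growth hormone, by -2.82 ± 0.89 (adjusted p = 0.0475), and *Ghrh* was not called without the pair of replicates 22 and 43 (adjusted p = 0.102). Both were low, at medians of 3.34 and 4.85 CPM in the ARC. The receptors *Ghsr* (ghrelin; -0.26 ± 0.52) and *Lepr* (leptin; -1.33 ± 0.49, adjusted p = 0.0935) were not called, and neither were *Th*, the dopamine synthesis enzyme (0.63 ± 0.36), *Bsx* and *Hmx3*. *Kiss1* was not analysed here.

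Of the transcription factors of the ARC list, 4 of the 6 tested were called, all higher in the ARC. *Isl1*, which acts in the making of *Pomc* neurons, ranged from 10.6 to 39.5 CPM in the ARC (median 19.5) and from 0 to 8.08 CPM in the PVN (median 0.635), without overlap (log2 fold change -5.03 ± 0.58, adjusted p = 2.31e-06). *Nkx2-1*, a factor of the ventral hypothalamus, ranged from 13.4 to 31.9 CPM in the ARC and from 0 to 12.1 CPM in the PVN, also without overlap (-3.26 ± 0.54). *Tbx3*, needed for the identity of *Pomc* neurons, ranged from 5.23 to 24.8 CPM in the ARC (median 19) and from 0.778 to 14.6 CPM in the PVN (median 3.09), with overlap (-1.98 ± 0.46, adjusted p = 0.00536), and *Six6* differed by -2.57 ± 0.75. The prolactin receptor *Prlr* (-0.96 ± 0.23) and the imprinted *Asb4* (-1.02 ± 0.21) were called too.

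Genes of neighbouring nuclei were also higher in the ARC. Of the 5 genes listed for the ventromedial nucleus, 3 were called higher in the ARC, and the summed level of the list was 35.2 to 155 CPM there against 15.8 to 55.7 CPM in the PVN. *Nr5a1*, which defines the ventromedial nucleus, ranged from 2 to 50.9 CPM in the ARC (median 37) and from 0 to 7.94 CPM in the PVN (log2 fold change -4.33 ± 0.63), and *Fezf1* from 3.07 to 63.5 CPM against 0.186 to 10.5 CPM (-3.09 ± 0.54). ARC replicate 43 was the lowest ARC library for both. *Sox14* was called as well (-3.74 ± 0.99), while *Nkx2-4* and *Bdnf* had log2 fold changes of -0.05 and -0.22. *Pmch*, the precursor of melanin-concentrating hormone, ranged from 3.79 to 196 CPM in the ARC (median 21.4) and had 3 counts in the whole PVN, all in replicate 21. Its summed counts gave a ratio of 456 (95% counting interval 156 to 2214, counting error only). ARC replicate 43 held 1272 of the 1937 *Pmch* counts of the ARC, so this ratio rests largely on that library. The fitted log2 fold change of *Pmch* was -8.31 ± 0.66 with all 6 pairs. Without the pair of replicates 22 and 43 it was -6.78 and still called (adjusted p = 1.62e-05). The part of ventromedial, lateral hypothalamic or thalamic tissue in the other differences between nuclei was not tested.

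Among genes outside the marker lists, *Nrgn*, the postsynaptic calmodulin-binding protein neurogranin, ranged from 24 to 178 CPM in the ARC (median 120) and from 5.9 to 20.6 CPM in the PVN (median 12.1), without overlap, and had the smallest p of this direction (log2 fold change -3.01 ± 0.22, adjusted p = 1.27e-09). *Camkv* (89.9 to 310 against 44.2 to 64 CPM, -2.06 ± 0.18), the metabotropic glutamate receptor *Grm5* (134 to 257 against 32.3 to 71.1 CPM, -2.05 ± 0.18) and the pentraxin *Nptx1* (59.8 to 171 against 19.4 to 51.5 CPM, -1.86 ± 0.16) did not overlap either. ARC replicate 43 was the lowest ARC library for *Nrgn* and *Camkv*. *Ets2*, a transcription factor, had -2.15 ± 0.17, *Esyt3*, a membrane contact protein, -3.23 ± 0.29, the calcium sensor *Hpcal4* -1.46 ± 0.13 and the cell adhesion gene *Opcml* -1.46 ± 0.14, each with every ARC library above every PVN library. Large folds at lower level were seen for *Gpr149* (-3.93), *Nptx2* (-3.55), *Acvr1c* (-3.54), *Lbhd2* (-4.44) and *H2-Q2* (-3.56), of which *H2-Q2* alone overlapped, through ARC replicate 43, at 3.84 CPM.

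Of 45 listed neuropeptide genes 20 were tested, with 5 called higher in the PVN (*Oxt*, *Avp*, *Crh*, *Trh* and *Penk*) and 10 higher in the ARC, or 8 without the pair of replicates 22 and 43, where *Ghrh* and *Tac1* were not called. The 10 were those above together with *Sst* (somatostatin; 41.8 to 91.6 against 1.94 to 66.8 CPM), *Adcyap1* (the peptide PACAP; 12.6 to 117 against 7.27 to 19.1 CPM), *Nts* (neurotensin; 3.73 to 21.1 against 0 to 3.23 CPM) and *Tac1* (8.52 to 26.4 against 0.953 to 21.1 CPM). Among 11 genes of prohormone processing, 2 were called in each direction, or 2 higher in the PVN and 3 higher in the ARC without the pair of replicates 22 and 43. *Vgf*, whose product is cut into neuropeptides, ranged from 124 to 225 CPM in the PVN (median 168) and from 60.2 to 121 CPM in the ARC (median 89.3), without overlap (log2 fold change 1.01 ± 0.14, adjusted p = 2.41e-05). The convertase *Pcsk1* was higher in the PVN too (0.99 ± 0.18), while the granin *Chga* (-1.13 ± 0.16) and *Pcsk1n*, which encodes an inhibitor of that convertase (-0.48 ± 0.12), were higher in the ARC, and *Pcsk1n* was not called with library totals (adjusted p = 0.296).

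Of 38 receptors of appetite signals and hormones, 30 were tested, 5 were called higher in the PVN and 7 higher in the ARC, or 5 and 4 without the pair of replicates 22 and 43. With library totals the counts turned to 8 and 3. *Glp1r*, the receptor of the gut hormone GLP-1, ranged from 6.46 to 25.7 CPM in the PVN (median 14.3) and from 0.142 to 5.09 CPM in the ARC (median 2.6). Its groups did not overlap and its log2 fold change was 2.39 ± 0.45 (adjusted p = 0.000810). *Cckar*, a cholecystokinin receptor, was higher in the PVN (2.59 ± 0.57), as were the serotonin receptor *Htr2c* (1.11 ± 0.33), *Mchr1*, the receptor of melanin-concentrating hormone (1.94 ± 0.58), and *Calcr*. *Cnr1*, the cannabinoid receptor, ranged from 78.9 to 151 CPM in the ARC (median 129) and from 36.9 to 60.5 CPM in the PVN (median 52.8), without overlap (-1.21 ± 0.16, adjusted p = 1.86e-05). *Npy2r* (-1.37 ± 0.29), *Prlr*, *Mc3r* (-2.42 ± 0.75), *Oxtr*, the oxytocin receptor (-2.24 ± 0.69), *Cckbr* (-1.97 ± 0.61) and *Ntsr2* (-0.84 ± 0.22) were also higher in the ARC, and *Mc3r*, *Oxtr*, *Ntsr2* and *Mchr1* were not called without the pair of replicates 22 and 43. *Ntsr1*, the other neurotensin receptor, was below the filter, at 0.194 to 1.62 CPM in the PVN and 1.68 to 20.6 CPM in the ARC.

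The general genes of neurons did not go one way. Of 7, *Elavl2* was higher in the PVN (1.74 ± 0.22), where ARC replicate 43 at 115 CPM overlapped the PVN, and *Syt1* (-1.01 ± 0.12), *Rbfox3* (-1.16 ± 0.19) and *Snap25* (-0.54 ± 0.12) were higher in the ARC. *Snap25* was not called with library totals (adjusted p = 0.154). Of 8 transmitter genes tested, *Gad1*, the synthesis enzyme of GABA, ranged from 35 to 189 CPM in the ARC (median 70.2) and from 4.13 to 36.5 CPM in the PVN (median 22.7), and differed by -2.42 ± 0.30 (adjusted p = 6.08e-06). The vesicular GABA transporter *Slc32a1* (-1.27 ± 0.28) and *Ddc*, which makes dopamine and serotonin from their precursors (-1.26 ± 0.38), were called in the same direction, *Ddc* with an adjusted p of 0.0876 without the pair of replicates 22 and 43. *Gad2* and the glutamate transporter *Slc17a6* were not called (adjusted p of 0.181 and 0.154).

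Markers of non-neuronal cells differed as well. Of 8 endothelial genes 5 were called higher in the PVN (*Flt1*, *Slco1a4*, *Abcb1a*, *Cldn5* and *Slc2a1*) and none higher in the ARC, and the summed level of the list was 183 to 275 CPM in the PVN and 100 to 152 CPM in the ARC. *Flt1*, a receptor of vascular endothelial growth factor, ranged from 60.7 to 87.1 CPM in the PVN and from 25.2 to 43.6 CPM in the ARC (log2 fold change 0.96 ± 0.16). The pericyte gene *Rgs5* ranged from 90.5 to 136 against 44.7 to 69.6 CPM (0.97 ± 0.14). It was the only gene called of 7 tested for mural and leptomeningeal cells, whose median log2 fold change was 0.11. Oligodendrocyte and astrocyte genes went the other way: 5 of 9 and 4 of 12 tested were called higher in the ARC and none higher in the PVN, or 3 and 4 without the pair of replicates 22 and 43. The astrocyte gene *Itih3* ranged from 207 to 330 CPM in the ARC and from 85.6 to 164 CPM in the PVN, without overlap (-0.98 ± 0.12). *Mbp* (-0.54 ± 0.14) and *Slc1a2*, the astrocytic glutamate transporter (-0.52 ± 0.11), lost their call with library totals, as *Mbp* did without the pair of replicates 22 and 43. Scaling by library totals left 2 oligodendrocyte and 2 astrocyte genes called, and 6 endothelial genes. In this edgeR fit no gene was called among 9 of microglia, 5 of oligodendrocyte precursors and 2 of ependymal cells, and with library totals 1 precursor gene was called higher in the PVN. Of 6 tanycyte genes tested, *Lhx2* was higher in the PVN (2.18 ± 0.64) and *Scn7a* higher in the ARC (-3.10 ± 0.51), and *Col25a1* was called higher in the ARC too without the pair of replicates 22 and 43 (adjusted p = 0.0407). *Rax*, which defines these cells, was at 0 to 4.98 CPM in all libraries. Of 4 thalamus genes tested, *Plekhg1* was called with all 6 pairs (1.43 ± 0.29), and *Lef1* as well without the pair of replicates 22 and 43 (adjusted p = 0.0317). The 4 pars tuberalis genes were below the filter.

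**Figure D4:**
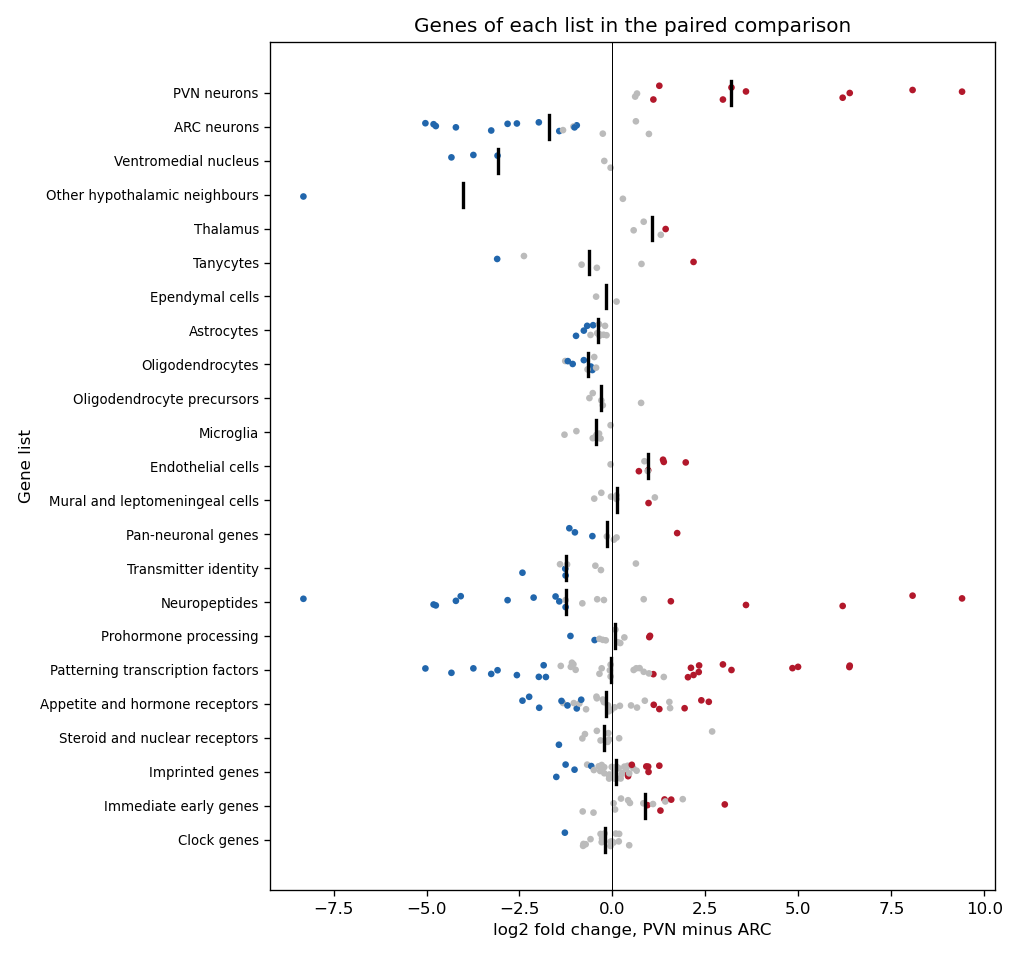
The log2 fold change (PVN minus ARC, 6 pairs) of every tested gene of each list, 1 point per gene, with called genes in red (higher in the PVN) or blue (higher in the ARC), others in grey, and the median of the list as a black bar. Points of PVN neurons and endothelial cells lie to the right, those of ARC neurons and the ventromedial nucleus to the left, and the list medians of receptors, clock genes and steroid receptors lie near 0.

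Imprinted genes are expressed from 1 parental copy in at least some tissues. Whether each listed gene is so expressed in these nuclei was not tested. Of 43 such genes listed, 38 were tested. Of these, 7 were called higher in the PVN and 4 higher in the ARC, against 3.50% and 5.47% of all genes tested. The median log2 fold change of the list was 0.09. Without the pair of replicates 22 and 43 the counts were 9 and 3. With library totals the counts were 11 and 2. *Dlk1* (172 to 321 against 81.7 to 144 CPM, 0.97 ± 0.14) and *Mest* (40.8 to 81.5 against 17.2 to 37 CPM, 0.96 ± 0.17), both expressed from the paternal copy, were higher in every PVN library than in any ARC library. *Meg3*, a maternally expressed RNA of the *Dlk1* locus, was higher in the PVN with overlap (0.91 ± 0.15), as were *Gnas*, *Nap1l5*, *Begain* and *Calcr*. *Plagl1*, a transcription factor gene, ranged from 47.6 to 91.6 CPM in the ARC and from 16 to 47.3 CPM in the PVN (-1.51 ± 0.18), and *Ppp1r9a*, *Asb4* and *Ddc* were also higher in the ARC. *Blcap* was not called, at medians of 69.9 CPM in the PVN and 64.5 CPM in the ARC (0.27 ± 0.15, adjusted p = 0.313).

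Of 16 immediate early genes tested, which follow neuronal activity, 5 were called higher in the PVN and none higher in the ARC, with a median of 0.89. *Fosl2* ranged from 30.9 to 69.3 CPM in the PVN (median 49.1) and from 2.73 to 11.9 CPM in the ARC (median 5.76; 3.02 ± 0.28, adjusted p = 6.83e-08), and *Jun* from 44.4 to 108 against 21.4 to 39.1 CPM (1.29 ± 0.17), both without overlap. *Fos* (1.40 ± 0.30), *Egr1* (0.94 ± 0.22) and *Nr4a1* (1.58 ± 0.39) overlapped. Of 17 clock genes 1 was called, a share near the 5.47% of all genes called higher in the ARC. It was *Tef*, at 80.7 to 191 CPM in the ARC and 45.8 to 68.9 CPM in the PVN (-1.28 ± 0.14). *Ucp2*, a mitochondrial carrier gene, had -0.55 ± 0.19 (adjusted p = 0.0679). All 9 mitochondrially encoded genes tested were called higher in the ARC, with log2 fold changes of -0.96 to -0.56, and with library totals 6 of 9 were called (-0.73 to -0.33). None of 54 ribosomal protein genes was called.

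The pairs fall into those of replicates 16 to 18 and those of 20 to 22, whose libraries differed in the share of mitochondrial counts in both nuclei: 26.3 to 32% and 34 to 34.6% (replicates 19 to 22) in the PVN, and 36.1 to 37.4% and 46.6 to 48.8% in the ARC. Tested alone, the pairs of replicates 16 to 18 gave 607 called genes, of which 601 were tested in the other pairs, 566 had the same direction there (94.2%) and 289 were called again. The pairs of replicates 20 to 22 gave 633 called genes, of which 522 of 609 (85.7%) had the same direction in the first pairs. Both shares are over called genes only. Over all 12069 genes tested in both sets, the log2 fold changes correlated at 0.41. A further 19 genes were called in both sets in opposite directions, lower in the PVN in the first and higher in the second. Of these 19, 9 are annotated as protein coding and 2 as ribosomal RNA. The noncoding *Gm42418* was at 16643 to 34586 CPM in PVN replicates 16 to 18, at 46371 to 104122 CPM in PVN replicates 19 to 22, at 59613 to 81987 CPM in ARC replicates 36 to 39 and at 8699 to 22788 CPM in ARC replicates 40 to 43. *Lars2*, the mitochondrial leucyl-tRNA synthetase gene, and *n-R5-8s1*, annotated as a ribosomal RNA, ran in the same order, with *n-R5-8s1* at 4348 to 8375, 10622 to 21569, 7892 to 10154 and 1516 to 4614 CPM. Over all 6 pairs none of these 3 was called (adjusted p of 0.662, 0.229 and 0.124).

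The difference between nuclei was next compared between weight classes, to ask whether it differed in obese Nnat+/-p mice. Of 16100 genes tested, none was called in edgeR (513 had an unadjusted p under 0.05 and the smallest adjusted p was 1) and none in DESeq2 (564 had an unadjusted p under 0.05). With the labelled weight as a block, 2 genes were called in edgeR. *Pomc* had a log2 fold change of -5.38 in obese and -2.66 in non-obese mice, whose ARC libraries include replicate 43, and *Oxt* of 8.82 and 11.48. The *Oxt* values rest on 0 to 2 counts in each non-obese ARC library and 0 to 8 in each obese ARC library. *Sim1* had 6.69 and 4.98, *Trh* 3.74 and 2.69, *Nrgn* -3.12 and -3.50, and *Vgf* 1.16 and 0.69. In simulated data this test found 3.3% of genes changed 2-fold and 31.5% of those changed 4-fold, so that differences of that size between weight classes were mostly not detectable with these libraries.

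The same contrast was then read in wild-type males on a 45% high-fat diet (6 PVN and 6 ARC libraries), which share no library with the Nnat+/-p mice but differ from them in both genotype and diet. Of the 1114 genes called between nuclei in Nnat+/-p mice, 1004 had the same direction in these mice (90.1%) and 304 of them were called there too, while 1 gene, *CT010467.1*, was called in the opposite direction. Over all 14655 genes tested, 269 were called higher in the PVN and 351 higher in the ARC of these wild-type mice. The share of all genes with the same direction was not measured. *Oxt* had a log2 fold change of 8.28 there, *Avp* 6.52, *Sim1* 5.88, *Pomc* -6.27, *Npy* -4.47 and *Nrgn* -2.09, and *Pmch* -1.75. The wild-type group includes PVN replicate 24, which held 0.896 CPM of *Avp* and 1.25 CPM of *Oxt* per library total, against its label. Its other markers were mixed, with 111 CPM of *Trh*, 21.5 CPM of *Crh* and 15.9 CPM of *Sim1*. It held 5.91 CPM of *Pomc* and 25.8 CPM of *Pmch*.

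A test of the difference itself called 55 of 14655 genes (0.375%), 42 with a higher and 13 with a lower PVN-to-ARC ratio in Nnat+/-p mice. The count moved with single libraries. It was 6 to 24 without any one of replicates 19, 20, 21, 23, 24, 25, 26, 27, 36, 40, 41, 42, 44, 45 and 46, with the lowest without ARC replicate 44, and 85 to 136 without any one of replicates 16, 28, 39 and 48, with the highest without PVN replicate 28. Without replicates 24 and 44, whose labelled weights match no library of the other nucleus in their group, 7 genes were called. Without replicates 24 and 43, some of whose markers go against their labels, 52 genes were called, of which 28 were among the 55. Of the 55, 17 are not protein coding, and 7 are among the 19 genes that turned direction between the sets of pairs, *Lars2* and *Gm42418* included.

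*CT010467.1*, annotated as ribosomal RNA, had log2 fold changes of 1.10 in Nnat+/-p and -1.22 in wild-type mice (difference 2.32 ± 0.33, adjusted p = 0.000265), and *Cmya5* of 1.38 and -3.09 (4.47 ± 0.75, adjusted p = 0.00271). In the other direction *Klhl13*, a ubiquitin ligase adaptor, had -1.50 and -0.14 (-1.36 ± 0.26, adjusted p = 0.0184), *Plcxd2* -1.25 and 0.32 (-1.57 ± 0.30, adjusted p = 0.0186) and *Cnr1* -1.31 and 0.11 (-1.42 ± 0.29, adjusted p = 0.0229). *Vgf* was higher in the PVN of Nnat+/-p mice by 0.96, against -0.18 in wild type on high-fat diet (1.14 ± 0.25, adjusted p = 0.0386, 0.0152 without replicates 24 and 43, and 0.0697 without replicates 24 and 44), and was not called with library totals. *Grm5* (-1.47 ± 0.34), *Ets2* (-1.16 ± 0.28), *Ntsr1* (-3.23 ± 0.78, adjusted p = 0.0484) and *Tef* (-0.99 ± 0.24, adjusted p = 0.0499) had differences called with all libraries. Of these *Grm5* and *Ntsr1* were not called without replicates 24 and 43 (adjusted p of 0.0599 and 0.0914). Without replicates 24 and 44 the calls of *Cnr1*, *Vgf*, *Grm5*, *Ets2*, *Ntsr1* and *Tef* were all lost (adjusted p of 0.0697 to 0.166), while *CT010467.1*, *Cmya5*, *Klhl13* and *Plcxd2* were called (0.00122 to 0.0234). Whether genotype or diet goes with these differences cannot be told apart. Levels of ventromedial genes in the ARC differed between these groups too. Per library total, *Nr5a1* was at 0.278 to 12.9 CPM and *Fezf1* at 0.833 to 14 CPM in wild-type ARC replicates 44 to 49. In Nnat+/-p ARC replicates 36 to 42 they were at 21.8 to 56.4 and 23.2 to 70.5 CPM, and in replicate 43 at 1.74 and 2.68 CPM. The part of ventromedial tissue in the called differences was not tested.

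**Figure D5:**
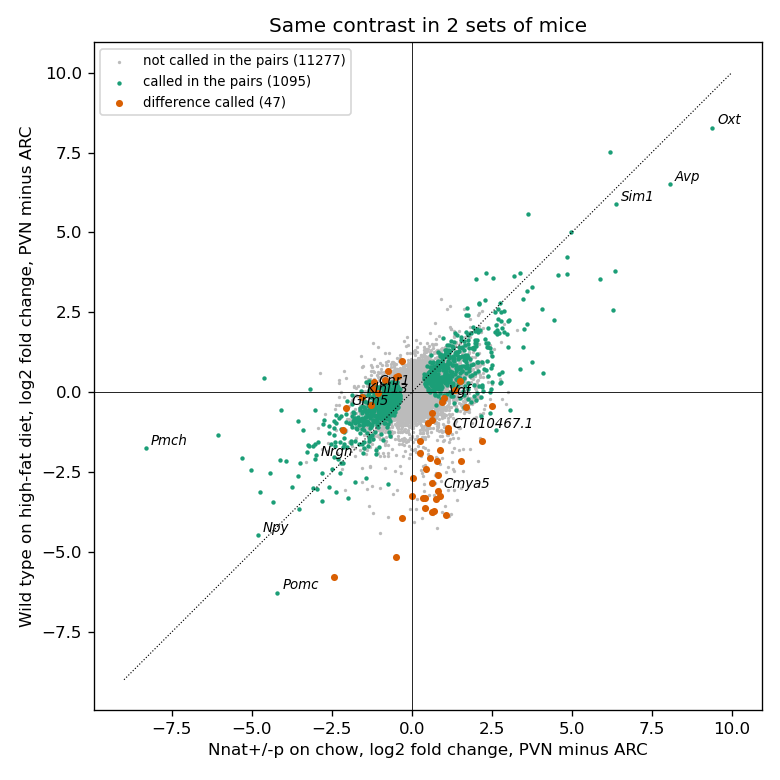
The log2 fold change (PVN minus ARC) of the 12419 genes in Nnat+/-p mice on chow (horizontal) and in wild-type mice on high-fat diet (vertical), with genes called in the pairs and without a called difference in green (1095) and genes whose difference was called in orange (47 of the 55 are among these genes). Of the 1114 genes called in the pairs, 1004 have the same sign on both axes, and orange points below the dotted line of equality have a higher ratio in Nnat+/-p mice.

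Against wild-type males on the same diet (PVN replicates 13 to 15, ARC replicates 33 and 34), no gene of 19487 was called in edgeR (670 had an unadjusted p under 0.05, smallest adjusted p 0.193) or in DESeq2 (719). In simulated data this test found 0% of genes changed 2-fold and 34.4% of those changed 4-fold. The library labelled wild-type PVN replicate 15 held 0.489 CPM of *Oxt* and 98.4 CPM of *Pomc*, against its label. The wild-type nuclei themselves differed at 7 genes higher in the PVN and 3 higher in the ARC with it, and at 36 and 84 without it. Without replicate 15, *Cnr1*, *Grm5* and *Ets2* had log2 fold changes of -1.15, -1.71 and -1.57 in wild type on chow. In Nnat+/-p mice they had -1.31, -1.96 and -2.35. *Vgf* and *Ntsr1* had 0.38 and -0.30 in wild type on chow, against 0.96 and -3.62 in Nnat+/-p mice. These wild-type values rest on few libraries. The library labelled wild-type ARC replicate 35, which carries the same labelled weight, was not used in this test and held 313 CPM of *Oxt*, 203 CPM of *Avp* and no count of *Pomc*, against its label too. Without replicates 15 and 43 the difference was still called at no gene.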

How the data were processed

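Laser-captured PVN and ARC tissue of male mice was sequenced by the authors as stranded total RNA libraries. The deposited files hold raw read counts per Ensembl gene, made with STAR 2.5.0a on GRCm38 per the submitters' processing notes; the strand setting of the counting is not given in the sources used here, so reads of overlapping genes such as *Nnat* and *Blcap* may not be separated. Of 53379 gene IDs, 53274 were matched to a symbol.

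Genes were kept with filterByExpr (minimum count 10), scaled with TMM and tested with edgeR 4.0.16 (quasi-likelihood F test, R 4.3.3), with Benjamini-Hochberg adjustment over all genes tested and an adjusted p under 0.05 as the call. The comparison of nuclei used 12 libraries with the labelled weight as a block, and the 3 tests of a difference used unblocked groups. Wild-type ARC replicate 35, at under 25% of the median depth of its table, was left out of the test on chow; its markers also go against its label. No source states that libraries of a group came from separate mice, so p-values measure the spread between these libraries. Levels are CPM of effective library sizes. Genes sharing reads with near-identical copies, such as ribosomal RNA and *H2-Q2*, are uncertain. Intervals cover counting error. Each SE is the absolute log2 fold change divided by the square root of the F value of the test, and is approximate at low counts.

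Named genes were *Nnat*, *Blcap*, all genes of 6 marker lists, the 10 smallest p and 10 largest changes (mean of at least 10 CPM) per direction, the 3 smallest p per direction of each other list and of each test of a difference, and *Mc4r*, *Glp1r*, *Vgf*, *Npy*, *Tbx3*, *Ntsr1*, *Nrgn* and *Ucp2*, of which the study's text names 5. Other called list members, *Gm42418*, *Lars2* and *n-R5-8s1* were chosen after their values were seen. Some named genes are not reported here. Members and lists were chosen with earlier results of these data known. Alternatives were DESeq2 1.42.0, its size factors, limma 3.58.1, no filter beyond a total count over 1, a 2-fold threshold, an adjusted p under 0.25, fits without the block and each replicate left out. Library totals, single sets of pairs, fits without mitochondrial genes and fits without libraries whose markers go against their labels were chosen after seeing the data. The scripts were tested on simulated data, where the paired test recovered 55.8% of genes changed 2-fold and 86.7% of those changed 4-fold, with 3.7% false calls among 11747 genes.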

Additional observations from a re-analysis of the deposited data

Results flagged for a closer look

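Of 40 groups checked over 20 genes, 6 held a library far from the others of its group. The rule set the gap to the next library against the range of the group, in CPM that were not on a log scale. How often such a library is flagged by chance at these levels was not measured. In the ARC, replicate 43 stood apart with 4.15 CPM of *Crh* (next 0.795 CPM) and 196 CPM of *Pmch* (next 63.7 CPM). In the PVN, replicate 19 stood apart with 0.404 CPM of *Agrp* (1 count, all others at 0) and 8.08 CPM of *Isl1* (next 3.38 CPM), replicate 21 with 0.773 CPM of *Pmch* (3 counts, all others at 0), and replicate 20 with 14.9 CPM of *Nnat* (next 5.06 CPM). For *Agrp* and *Pmch* in the PVN, where all others are at 0, any count would stand apart by construction.

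The difference between nuclei itself differed between Nnat+/-p mice on chow and wild-type mice on high-fat diet for 11 named genes in edgeR's test. On the log2 scale the PVN-to-ARC ratio was higher in Nnat+/-p mice by 2.32 for *CT010467.1*, 5.91 for *Gm23799* (adjusted p = 0.00271), 4.47 for *Cmya5* and 1.14 for *Vgf*. The difference was -1.36 for *Klhl13*, -1.57 for *Plcxd2*, -1.42 for *Cnr1*, -1.47 for *Grm5*, -1.16 for *Ets2*, -0.99 for *Tef* and -3.23 for *Ntsr1*. *CT010467.1* and *Gm23799* are annotated as ribosomal RNA. Without replicates 24 and 44, *CT010467.1*, *Gm23799*, *Cmya5*, *Klhl13* and *Plcxd2* were called and the other 6 were not. Genotype and diet cannot be told apart here, and the part of ventromedial tissue in these differences was not tested.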

How the results depend on the processing

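The counts of 435 genes higher in the PVN and 679 higher in the ARC became 737 (PVN) with DESeq2, 975 and 326 with library totals, 47 and 56 when a change over 2-fold was tested, and 1219 and 1593 at an adjusted p under 0.25. They became 213 and 394 with the pairs of replicates 16 to 18, and 336 (ARC) with those of 20 to 22, where fewer libraries were tested. Leaving out each pair in turn gave 315 to 389 and 487 to 643. Without the replicate block the counts were 556 and 662 over all 15 libraries, and 451 and 585 over the paired 12. The correlation of deviations within pairs was -0.014 to 0.209 over 3619 genes, over 0.1 in 4 of 6 pairs, and 3 of 6 PVN libraries correlated best with the ARC library of their weight. The pairing rests on labelled weight alone.

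The difference between weight classes was called at 6 genes with all genes over a total count of 1, at 2 with weight as a replicate block, and at 0 with any replicate left out. The difference from wild type on high-fat diet was called at 107 genes with DESeq2, 544 with all genes over a total count of 1, 91 with library totals, 7 without replicates 24 and 44, 544 at an adjusted p under 0.25, and 6 to 136 with 1 replicate left out. On chow it was called at 33 genes with all genes over a total count of 1, 1 at an adjusted p under 0.25, and 0 to 2 with 1 replicate left out (1 without replicate 13, 2 without replicate 33). Where no construction shows it, the cause of these changes was not tested.

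Of 1931 values of 92 named genes across alternatives, 1790 kept direction and call, 135 lost the call, 5 gained it (all *Ucp2*) and 1 turned direction: *Mc4r*, not called, had a log2 fold change of -0.24 with the pairs of replicates 20 to 22. The call of *Ghrh* was lost most often, in 15 alternatives. Genes under the filter of 10 counts, *Agrp* and *Ntsr1* among them, could not be compared in the pairs.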

Other observations

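One library whose label gives the ARC of an Nnat+/-p mouse on high-fat diet, replicate 32, is held in the table of PVN libraries and was put in no group. It held 7348988 counts, with 584 CPM of *Oxt*, 277 CPM of *Avp*, 159 CPM of *Sim1*, 105 CPM of *Crh* and 129 CPM of *Trh* per library total. *Pomc* was at 2.45 CPM, *Agrp* at 0.816 CPM, *Nr5a1* at 0.953 CPM, *Pmch* at 6.67 CPM and *Nnat* at 4.76 CPM, and *Npy* had no count. ARC replicates 39 and 40, which carry the same labelled weight, correlated at 0.846 across 7868 genes, within the range of 0.832 to 0.954 between ARC libraries.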
